A study of Mus musculus with 12 samples.

Results

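The genes described here encode proteins of the ubiquitin-proteasome system: proteasome subunits, ubiquitin-conjugating enzymes, RING finger and TRIM ubiquitin ligases, the F-box, BTB-kelch, KCTD and SOCS-box proteins that bring substrates to cullin ligases, and ubiquitin-specific proteases. They were chosen by the start of the gene symbol (Rnf, Trim, Fbxl, Fbxo, Fbxw, Usp, Ube2, Ube3, Psma to Psmg, Klhl, Kctd, Kbtbd, Asb, March, Cul and Socs, without Fbxo33), which gave 134 of the 10245 genes of the table. No symbol starting with Cul, March, Ube3, Psme or Psmg was among them. RNA-Seq was performed on hippocampal CA1, the region of excitatory pyramidal neurons used in spatial memory, from 6 Tip60 cKO and 6 Control mice, with 1 library per mouse. Tip60, listed as Kat5, is a lysine acetyltransferase of histones and other proteins. Tip60 cKO mice carried floxed Tip60 alleles together with CaMKCreERT2, a Cre recombinase that tamoxifen activates and the Camk2a promoter drives in excitatory neurons of the forebrain. Control mice were littermates with the floxed alleles and no Cre. All 12 were, per the labels, male C57BL/6N animals given tamoxifen at 2 months of age, and CA1 was taken 10 days after the last injection, with dorsal CA1 from the left and right hippocampus pooled for each mouse. Since only the Tip60 cKO mice carried Cre, loss of Tip60 and the presence of Cre cannot be told apart. Other cell types of the tissue were not recombined but contributed RNA.

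Ubiquitin is a small protein that is activated by an E1 enzyme, handed to an E2 conjugating enzyme and attached to a substrate with the help of an E3 ligase, which gives the substrate specificity. Chains of ubiquitin can send a protein to the proteasome, in which a 19S regulatory particle recognises and unfolds the substrate and a 20S core cleaves it, while single ubiquitins on histones mark chromatin and deubiquitinating enzymes remove either signal. In neurons this system is known for the turnover of synaptic proteins and for the control of axon and dendrite growth.

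Levels were given in FPKM, a fragment count divided by transcript length and by sequencing depth. The depth, estimated from the lowest values of genes with 1 annotated transcript, where 1 read sets the level, was 32.4 ± 1.64 M reads (M, mega) in Tip60 cKO libraries and 34.6 ± 2.65 M in Control libraries (SD, n = 6 each). Counting error was thus uneven: an estimated 2085 to 2675 reads in Tip60 cKO libraries and 2607 to 3146 in Control libraries came from Klhl9, but 40.7 to 74.8 in Tip60 cKO libraries and 50.8 to 75.7 in Control libraries from Kctd11, one of the least abundant members tested. Kat5 was not analysed here, so that the deletion could not be checked in these libraries. Among the lists of cell type markers, the summed level of 5 GABAergic interneuron markers was 806 to 874 FPKM in Tip60 cKO libraries and 392.2 to 456 FPKM in Control libraries, and all 5 (Slc32a1, Sst, Npy, Cort and Crhbp) were called higher. Most of that sum was the peptide gene Sst (616 FPKM in Tip60 cKO mice and 317 FPKM in Control mice). Slc32a1 averaged 24.5 FPKM in Tip60 cKO mice and 19.65 FPKM in Control mice (log2 change 0.30). After median-ratio scaling 4 of the 5 were called higher. The summed level of 6 microglia markers was 118 to 153 FPKM in Tip60 cKO libraries and 107 to 125 FPKM in Control libraries (3 higher, 1 lower), and that of 4 meninges markers 29.4 to 38.4 FPKM in Tip60 cKO libraries and 20.3 to 29.3 FPKM in Control libraries (2 higher). For CA1 pyramidal neurons only Pou3f1 was in the table, at 48.1 to 62.5 FPKM in Tip60 cKO libraries and 25.8 to 31.7 FPKM in Control libraries, and no astrocyte marker was analysed. The summed level of 2 CA2 and CA3 markers was 12.2 to 19.96 FPKM in Tip60 cKO libraries and 18.2 to 27.6 FPKM in Control libraries, with Cacng5 called lower (2.69 FPKM in Tip60 cKO mice and 5.38 FPKM in Control mice, log2 change -0.79, limma adjusted p = 1.71e-06). None of 5 dentate granule cell markers (9.25 to 18.6 FPKM in Tip60 cKO libraries and 8.43 to 23.3 FPKM in Control libraries) and none of 2 oligodendrocyte markers (72.3 to 83.4 FPKM in Tip60 cKO libraries and 59.9 to 76.2 FPKM in Control libraries) was called by limma (0 and 1 at an unadjusted p under 0.05), and 1 of 3 endothelial and mural markers, Acta2, was higher. The choroid plexus and ependyma markers summed to 204 FPKM in Tip60 cKO replicate 1, where the transthyretin gene Ttr was high, and the lowest sum in that genotype was 0.744 FPKM, against 0.493 to 1.35 FPKM in Control libraries. Ttr was not called, but Dynlrb2 of this list was called higher, with overlap between the genotypes. Dynlrb2 averaged 0.947 FPKM in Tip60 cKO mice and 0.359 FPKM in Control mice (log2 change 0.52, limma adjusted p = 0.033). No marker of these lists was at 0 in all libraries. In such bulk tissue, fewer cells of a type and less RNA per cell cannot be told apart. The part of these shifts in the results on the ubiquitin system was not tested.

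Of the 134 members, 65 had a mean of at least 0.5 FPKM and were tested together with all other genes above that level, 2416 in all. Another 61 were above 0 in some library but below this level, 6 were at 0 in every library (Fbxl22, Fbxw19, Kctd19, Trim52, Trim54 and Ube2dnl), and 2 (Asb8 and Fbxl15) held isolated values of exactly 0 and were set aside. A gene was called when its adjusted p in limma (Benjamini-Hochberg) was below 0.05 and FPKM + 1 differed more than 1.2-fold. Log2 changes are Tip60 cKO minus Control of log2(FPKM + 1), a scale on which changes of low genes come out too small. By this rule 10 members were upregulated and 3 downregulated in Tip60 cKO mice, 15.4% and 4.62% of the 65, where 19.9% and 6.5% of all tested genes were called higher and lower. The members were thus called no more often than the table as a whole. With the adjusted p alone, 29 members were higher (44.6%) and 9 lower (13.8%), against 40.2% and 14.4% of all tested genes. The median log2 change was 0.10 for the members and 0.09 for all tested genes. After median-ratio scaling, which centres each library on the typical gene, it was 0.02 for the members and 0.01 for all tested genes, and the calls were then 5 higher and 7 lower among the members and 285 and 278 among all tested genes (7.69% and 10.8% of the members, 11.8% and 11.5% of all). With upper-quartile scaling 6 members (9.23%) were higher and 5 (7.69%) lower, where 14% and 9.4% of all tested genes were. Higher calls made up 76.9% of the members' calls as deposited and 41.7% after median-ratio scaling (75.4% and 50.6% for all tested genes). The direction of small changes therefore depended on the scaling and is given below where it flipped or a call was lost.

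**Figure D1:**
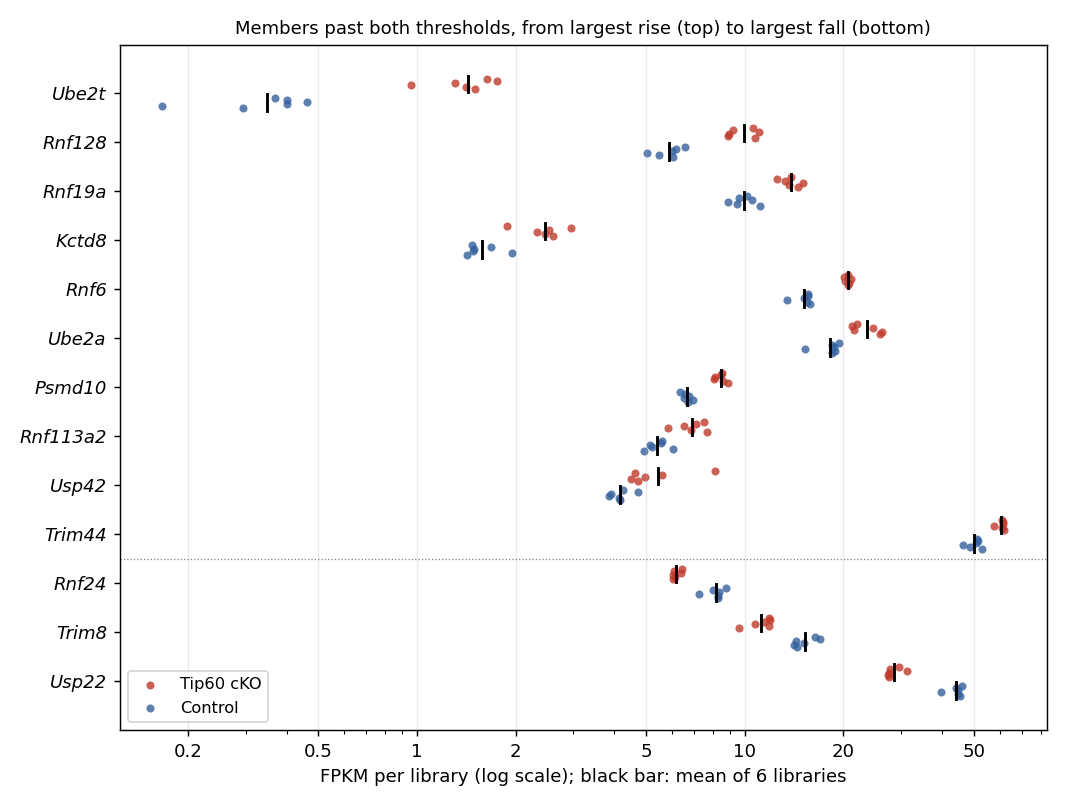
Level of the 13 called members in each library, in FPKM on a log axis, with Tip60 cKO libraries above Control libraries for each gene and a black bar at the mean of 6. Ube2t stands farthest apart, and the points overlap between the genotypes for Kctd8, Rnf113a2 and Usp42.

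The promoters of 4 upregulated members are shown because these genes cover the roles that follow (a conjugating enzyme, a proteasome assembly factor, a receptor adaptor and a TRIM protein) and each holds a match to one of the motifs searched. Each runs from 250 bases before to 50 after the transcript start in the RefSeq annotation of GRCm38.p6, a later build than the mm9 of the levels, and capitals mark the matches: CCAAT (or ATTGG on the other strand) for Ube2t at chr1:134962315-134962614 (plus strand) and Psmd10 at chrX:140956662-140956961 (minus strand), TGACGTCA, the cAMP response element, for Kctd8 at chr5:69341660-69341959 (minus strand), and TTTCCCGC, an E2F site read here on the other strand as GCGGGAAA, for Trim44 at chr2:102400851-102401150 (minus strand).
Ube2t: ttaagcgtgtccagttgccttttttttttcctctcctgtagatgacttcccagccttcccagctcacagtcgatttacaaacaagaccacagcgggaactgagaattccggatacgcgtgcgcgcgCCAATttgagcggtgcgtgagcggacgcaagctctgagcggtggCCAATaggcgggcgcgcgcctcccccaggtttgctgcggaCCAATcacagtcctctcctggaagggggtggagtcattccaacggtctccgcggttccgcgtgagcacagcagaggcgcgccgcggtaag
Psmd10: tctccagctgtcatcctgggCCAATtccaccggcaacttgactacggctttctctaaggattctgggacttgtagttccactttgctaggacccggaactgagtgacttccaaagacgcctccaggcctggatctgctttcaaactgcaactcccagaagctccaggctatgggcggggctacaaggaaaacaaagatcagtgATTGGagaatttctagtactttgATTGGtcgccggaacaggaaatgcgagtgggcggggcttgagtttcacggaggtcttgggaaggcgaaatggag
Kctd8: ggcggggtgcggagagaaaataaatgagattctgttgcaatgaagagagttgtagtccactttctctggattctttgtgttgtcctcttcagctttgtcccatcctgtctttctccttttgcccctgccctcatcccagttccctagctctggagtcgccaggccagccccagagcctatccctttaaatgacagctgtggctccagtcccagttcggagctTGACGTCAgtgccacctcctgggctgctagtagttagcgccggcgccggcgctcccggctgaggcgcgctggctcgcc
Trim44: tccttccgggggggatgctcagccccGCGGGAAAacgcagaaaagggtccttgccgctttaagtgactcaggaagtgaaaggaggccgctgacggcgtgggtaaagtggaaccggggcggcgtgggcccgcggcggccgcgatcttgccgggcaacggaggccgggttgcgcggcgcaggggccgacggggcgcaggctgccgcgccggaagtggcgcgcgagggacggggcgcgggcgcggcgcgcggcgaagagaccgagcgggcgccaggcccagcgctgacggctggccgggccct

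Of the 134 members, 103 were matched to this promoter table by symbol, 51 of them among the 65 tested. The motifs were searched on both strands. CCAAT was present in 29.3% of the 58 windows of tested members and in 37.4% of all 32851 windows, so that its 3 copies in the Ube2t window and 3 in the Psmd10 window describe these promoters and not the family. The cAMP response element was in 3.45% of the windows of tested members and 1.79% of all windows, and the E2F site in 3.45% and 1.07%, which is 2 windows of tested members for each motif. The core of the antioxidant response element (TGACNNNGC), found near proteasome genes in the response to oxidative stress, was in 12.1% and 12.4%. None of the searched letters occurred in the windows of Rnf128, Rnf24 and Ube2a. A match is a description of the sequence and not a bound site.

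The proteasome genes differed among themselves in direction. Of 17 genes, 16 were tested, of which 1 was called higher and none lower by limma, while with the adjusted p alone 8 were higher and 1 was lower. Without adjustment (p under 0.05) 8 were higher and 1 lower. Of all tested genes, 19.9% were called higher and 6.5% lower, and 40.2% and 14.4% with the adjusted p alone. These proteasome tallies are for the values as deposited. The median log2 change of the proteasome genes was 0.16 as deposited and 0.08 after median-ratio scaling. After that scaling Psmb11, Psmb3, Psmb6, Psmd10, Psmd3, Psmd7 and Psmd8 were higher by the adjusted p. Psma6, Psmb4, Psmc2, Psmd1, Psmd14 and Psmd2 were then lower by it, so that the split by direction depended on the scaling. Psmd10 (gankyrin), a chaperone that assists assembly of the base of the 19S particle, lay between 8.03 and 8.90 FPKM in Tip60 cKO libraries (median 8.47), against 6.33 to 6.96 FPKM in Control libraries (median 6.65). Every Tip60 cKO library was above every Control library, and the log2 change was 0.30 ± 0.04 (SE, limma adjusted p = 5.14e-06), but the call was lost after median-ratio scaling (log2 change 0.20) and after upper-quartile scaling.

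Subunits of the 19S lid were higher in part. The lid gene Psmd3 averaged 48.7 ± 2.28 FPKM in Tip60 cKO mice and 41.3 ± 1.61 FPKM in Control mice (SD, n = 6 each), Psmd7 averaged 51.1 ± 1.29 FPKM in Tip60 cKO mice and 43.1 ± 1.65 FPKM in Control mice, and Psmd8 averaged 46.0 ± 1.77 FPKM in Tip60 cKO mice and 39.7 ± 0.908 FPKM in Control mice. The genotypes did not overlap for any of them. These differences, 0.21 to 0.24 on the log2 scale, passed the adjusted p but not the 1.2-fold threshold. After median-ratio scaling they were 0.11 for Psmd3, 0.12 for Psmd7 and 0.09 for Psmd8, and still passed the adjusted p. Psmd14, the deubiquitinase of the same lid, averaged 33.3 ± 0.902 FPKM in Tip60 cKO mice and 33.9 ± 1.5 FPKM in Control mice and did not pass (log2 change -0.02, 95% interval -0.10 to 0.05). The scaffold subunits of the base, Psmd1 (32.0 ± 0.48 FPKM in Tip60 cKO mice and 33.4 ± 1.7 FPKM in Control mice) and Psmd2 (58.3 ± 0.931 FPKM in Tip60 cKO mice and 59.6 ± 2.11 FPKM in Control mice), did not pass either. After median-ratio scaling Psmd14 (-0.14), Psmd1 (-0.17) and Psmd2 (-0.15) were lower by the adjusted p, but not past the fold threshold. Whether these genes were unchanged or slightly lower therefore depended on the scaling. Psmc2, one of the ATPases that unfold substrates, was lower by the adjusted p, with 34.1 ± 1.36 FPKM in Tip60 cKO mice and 38.9 ± 2.23 FPKM in Control mice (log2 change -0.18 ± 0.04, limma adjusted p = 0.00161), below the fold threshold as deposited and past it after median-ratio scaling (-0.30). Psmd9, another assembly chaperone of the base, averaged 7.005 ± 0.453 FPKM in Tip60 cKO mice and 5.94 ± 0.448 FPKM in Control mice (log2 change 0.21, adjusted p = 0.00313). It no longer passed the adjusted p after median-ratio scaling (log2 change 0.10, limma adjusted p = 0.0781), but did after upper-quartile scaling (0.14, limma adjusted p = 0.0306).

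In the 20S core the catalytic subunit gene Psmb6 ranged from 66.4 to 71.0 FPKM in Tip60 cKO libraries and from 54.7 to 59.1 FPKM in Control libraries, and Psmb3, another gene of the beta ring, from 83.3 to 90.6 FPKM in Tip60 cKO libraries and from 69.5 to 74.8 FPKM in Control libraries. Neither overlapped between the genotypes, and the log2 changes of 0.25 and 0.24 passed the adjusted p but not the fold threshold, except that Psmb6 passed both without Control replicate 5 (0.27). Psmb4, also of the beta ring and the most abundant member tested, averaged 90.3 ± 4.51 FPKM in Tip60 cKO mice and 90.3 ± 3.99 FPKM in Control mice, with an interval of the log2 change from -0.09 to 0.08. The proteins occur in equal numbers in the core, whereas the intervals of the transcript changes of Psmb6 and Psmb3 lay above that of Psmb4. The alpha subunit genes Psma5 and Psma6 did not pass (0.06 and -0.04 on the log2 scale), and Psma5 turned to -0.06 after median-ratio scaling. After that scaling Psma6 (-0.16) and Psmb4 (-0.12) were lower by the adjusted p, and Psmb6 (0.14) and Psmb3 (0.12) still higher. None of these passed the fold threshold after it.

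Tissue-specific proteasome subunits were low. Psmb8, the interferon-induced subunit that replaces a constitutive one in the immunoproteasome, averaged 2.33 ± 0.282 FPKM in Tip60 cKO mice and 2.01 ± 0.355 FPKM in Control mice (log2 change 0.15, interval -0.02 to 0.31, limma adjusted p = 0.124). It was 1 of only 2 tested members of the list of immunoproteasome and interferon-induced genes. The other was Fbxo6, a receptor for glycoproteins, at 9.325 ± 0.548 FPKM in Tip60 cKO mice and 10.3 ± 0.947 FPKM in Control mice, and neither was called by limma (at an unadjusted p under 0.05, 0 were higher and 1 lower). After median-ratio scaling Fbxo6 was lower by the adjusted p (log2 change -0.24, limma adjusted p = 0.00196), but not past the fold threshold. Psmb11, the thymus form of the same catalytic position as Psmb8, ranged from 0.543 to 0.760 FPKM in Tip60 cKO libraries and from 0.404 to 0.531 FPKM in Control libraries. It passed the adjusted p (0.003) but not the fold of FPKM + 1, although its mean was 1.43 times that of Control mice, and with a pseudocount of 0.1 or 0.5 it was called higher. Psma8, known from testis, averaged 0.0995 FPKM in Tip60 cKO mice and 0.175 FPKM in Control mice and was below the tested level.

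**Figure D2:**
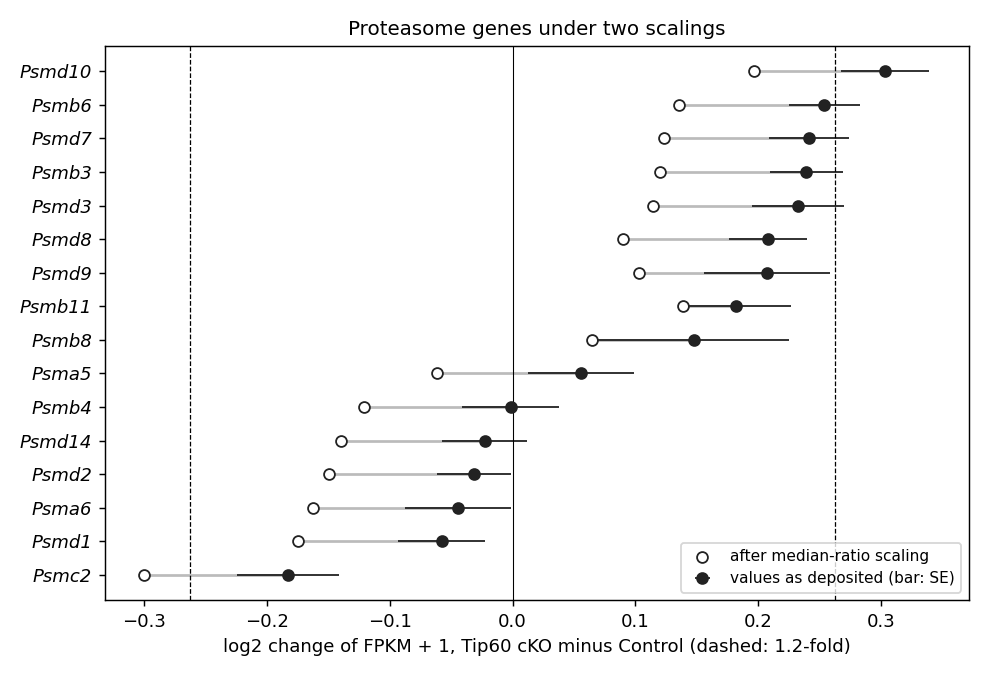
Log2 change of FPKM + 1 (Tip60 cKO minus Control) of the 16 tested proteasome genes, with values as deposited as filled points with SE and values after median-ratio scaling as open points. The scaling moves every gene to the left, so that Psmd10 falls inside the dashed 1.2-fold line and Psmc2 passes it on the other side.

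Of the 8 tested genes with Ube2 symbols, 2 were upregulated and none was called lower by limma (3 were lower at an unadjusted p under 0.05). Among all tested genes, 19.9% were called higher and 6.5% lower. The 8 were genes of E2 conjugating enzymes except for the ligase gene Ube2cbp. Ube2t, the enzyme that attaches ubiquitin to FANCD2 in the Fanconi anaemia pathway of DNA crosslink repair, had the largest log2 change of all tested members. It lay between 0.961 and 1.75 FPKM in Tip60 cKO libraries (median 1.46), against 0.166 to 0.463 FPKM in Control libraries (median 0.384). The lowest Tip60 cKO library, replicate 3, was still above the highest Control library, and the mean was 4.09 times that of Control mice (log2 change 0.84 ± 0.08, limma adjusted p = 3.8e-07). Ube2t was called under each of the 22 alternative settings.

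Ube2a, a mouse homologue of yeast Rad6 known for ubiquitin on histone H2B and on PCNA, lay between 21.2 and 26.1 FPKM in Tip60 cKO libraries (median 23.3), against 15.3 to 19.3 FPKM in Control libraries (median 18.6). The genotypes did not overlap, and Control replicate 3 was far below the other Control libraries. The log2 change was 0.35 ± 0.06 (adjusted p = 0.000269) and the call was lost after median-ratio scaling. Reads of Ube2a may be shared with its close paralogue Ube2b.

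No other E2 gene was called. Ube2c and Ube2s build ubiquitin chains for the anaphase-promoting complex in mitosis. Ube2c averaged 1.81 ± 0.482 FPKM in Tip60 cKO mice and 1.73 ± 0.217 FPKM in Control mice (interval of the log2 change -0.18 to 0.25), and Ube2s 38.9 ± 1.28 FPKM in Tip60 cKO mice and 39.3 ± 1.14 FPKM in Control mice (-0.08 to 0.05). After median-ratio scaling Ube2s was lower by the adjusted p (log2 change -0.13, limma adjusted p = 0.000427), and also after upper-quartile scaling (-0.087, limma adjusted p = 0.00948). Neither change passed the fold threshold. Of the 5 tested members on the list of cell cycle genes, Ube2t was thus the only one called as deposited. The remaining members of that list were Rnf168, a ligase that marks histone H2A at DNA breaks, and Klhl9, a cullin adaptor for Aurora B in mitosis. As deposited, Rnf168 and Klhl9 passed the adjusted p in opposite directions (0.11 and -0.17 on the log2 scale). After median-ratio scaling Klhl9 was called lower, while Rnf168 was at 0.0025 and no longer passed (limma adjusted p = 0.963). Rnf168 did not pass after upper-quartile scaling either (log2 change 0.042, limma adjusted p = 0.374). Ube2ql1, the most abundant E2 gene tested, averaged 45.2 ± 3.08 FPKM in Tip60 cKO mice and 52.3 ± 4.61 FPKM in Control mice (log2 change -0.20, adjusted p = 0.00757) and was called lower after both rescalings. Ube2z, charged by the second ubiquitin-activating enzyme Uba6, was at 16.0 ± 0.499 FPKM in Tip60 cKO mice and 17.6 ± 1.00 FPKM in Control mice (adjusted p = 0.0122). Ube2cbp, an older symbol of the ligase gene Ube3d, ranged from 0.654 to 0.777 FPKM in Tip60 cKO libraries and from 0.389 to 0.631 FPKM in Control libraries, and passed the fold threshold only with the smaller pseudocounts.

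RING finger ligases, the largest family tested, held the most calls, 4 higher and 1 lower of 13 tested. Of all tested genes, 19.9% were called higher and 6.5% lower. Rnf128 (GRAIL), a membrane ligase first known from unresponsive T cells, lay between 8.91 and 11.1 FPKM in Tip60 cKO libraries (median 9.92), against 5.03 to 6.59 FPKM in Control libraries (median 6.02). The genotypes did not overlap, and the mean was 1.69 times that of Control mice (log2 change 0.66 ± 0.07, limma adjusted p = 7.78e-07). Rnf19a (dorfin), a RING-between-RING ligase known for its action on mutant superoxide dismutase, lay between 12.56 and 15.01 FPKM in Tip60 cKO libraries (median 13.7), against 8.92 to 11.1 FPKM in Control libraries (median 9.87). Again there was no overlap (log2 change 0.44 ± 0.05, adjusted p = 6.13e-06). Its paralogue Rnf19b averaged 12.9 ± 1.12 FPKM in Tip60 cKO mice and 13.03 ± 0.439 FPKM in Control mice, with an interval of the log2 change from -0.12 to 0.10 that lies below the interval of Rnf19a.

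Rnf6, a ligase that controls LIM kinase in growing axons, lay between 20.1 and 21.1 FPKM in Tip60 cKO libraries (median 20.6), against 13.5 to 15.9 FPKM in Control libraries (median 15.5). The 6 Tip60 cKO libraries were close to each other and all above the Control libraries (log2 change 0.42 ± 0.04, adjusted p = 3.47e-07). Rnf113a2, a mouse retrocopy of the splicing-associated gene Rnf113a1, with which reads may be shared, lay between 5.84 and 7.66 FPKM in Tip60 cKO libraries (median 6.96), against 4.91 to 6.03 FPKM in Control libraries (median 5.39). Tip60 cKO replicate 3 fell within the Control range, and the call (log2 change 0.30 ± 0.06, adjusted p = 0.000597) was lost after either rescaling.

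The downregulated RING gene was Rnf24, a membrane protein that binds TRPC channels. It lay between 6.02 and 6.46 FPKM in Tip60 cKO libraries (median 6.11), against 7.23 to 8.77 FPKM in Control libraries (median 8.28), and every Tip60 cKO library was below every Control library (log2 change -0.35 ± 0.04, adjusted p = 7.46e-06). Among the others, Rnf2, the catalytic subunit of Polycomb repressive complex 1 that ubiquitinates histone H2A, averaged 15.1 ± 0.555 FPKM in Tip60 cKO mice and 12.6 ± 0.842 FPKM in Control mice. Its libraries did not overlap, and the log2 change of 0.25 (adjusted p = 0.000224) stayed below the fold threshold except without Control replicate 1 (0.26, past 1.2-fold). No overlap and a change below the fold threshold also held for Rnf7, the RING partner of cullin 5 and the most abundant RING member (45.4 ± 2.35 FPKM in Tip60 cKO mice and 39.0 ± 1.99 FPKM in Control mice), and for Rnf219 (3.55 ± 0.113 FPKM in Tip60 cKO mice and 2.92 ± 0.182 FPKM in Control mice). Rnf219 passed both thresholds with a pseudocount of 0.1.

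The TRIM family had 28 genes in the table but only 6 above the tested level. Trim44, an unusual member with a zinc finger of the deubiquitinase type in place of a RING, was the most abundant. It lay between 57.6 and 61.9 FPKM in Tip60 cKO libraries (median 61.1), against 46.4 to 52.9 FPKM in Control libraries (median 50.8). The genotypes did not overlap, but the log2 change of 0.27 ± 0.04 (limma adjusted p = 1.16e-05) stood just past the 1.2-fold threshold of 0.263, and the call was lost after either rescaling and without Control replicate 2 (0.26) or Control replicate 3 (0.25). Trim8, a ligase first described as a partner of the cytokine suppressor SOCS1, was downregulated, with 9.62 to 11.9 FPKM in Tip60 cKO libraries (median 11.6), against 14.1 to 17.02 FPKM in Control libraries (median 14.8). All Tip60 cKO libraries were below all Control libraries (log2 change -0.41 ± 0.06, adjusted p = 3.15e-05). Trim67, which is enriched in brain, ranged from 0.658 to 0.754 FPKM in Tip60 cKO libraries and from 0.391 to 0.578 FPKM in Control libraries. It passed the adjusted p (0.001) but the fold threshold only with the smaller pseudocounts.

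No F-box or BTB-kelch gene was called by limma, although 5 F-box genes were higher and 2 lower, and 1 BTB-kelch gene was lower, at an unadjusted p under 0.05. Of the 8 F-box receptors tested, 4 passed the adjusted p as deposited, all higher: Fbxo22 (12.9 ± 0.457 FPKM in Tip60 cKO mice and 11.3 ± 0.783 FPKM in Control mice), Fbxo10, Fbxo46 and Fbxo42, with log2 changes of 0.10 to 0.18. With the adjusted p alone, 40.2% of all tested genes were higher and 14.4% lower as deposited. After median-ratio scaling none of these 4 F-box genes passed the adjusted p. Their limma adjusted p was then 0.148 for Fbxo22, 0.282 for Fbxo10, 0.525 for Fbxo46 and 0.937 for Fbxo42, which turned to -0.0039. Fbxo45, the substrate receptor of a synaptic ligase with Phr1, averaged 13.1 ± 0.523 FPKM in Tip60 cKO mice and 12.5 ± 0.722 FPKM in Control mice (interval of the log2 change -0.03 to 0.15). Fbxo31, the most abundant F-box gene tested, averaged 22.2 ± 1.69 FPKM in Tip60 cKO mice and 24.3 ± 1.47 FPKM in Control mice (adjusted p = 0.0545). After median-ratio scaling Fbxo31 was lower by the adjusted p (log2 change -0.24, limma adjusted p = 0.00142), but not past the fold threshold. On the list of neuronal and synaptic members none of the 5 tested genes (Trim67, Fbxo31, Fbxo45, Klhl1 and Usp14) was called by limma (1 higher and 2 lower at an unadjusted p under 0.05), and their median log2 change was 0.06. Of the 4 BTB-kelch genes tested, Klhl9 was the most abundant, with 17.4 ± 1.08 FPKM in Tip60 cKO mice and 19.8 ± 1.31 FPKM in Control mice. The muscle gene Kbtbd10, an older symbol of Klhl41, was at 0.6725 ± 0.102 FPKM in Tip60 cKO mice and 0.553 ± 0.117 FPKM in Control mice.

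The KCTD family contains auxiliary subunits of the GABA-B receptor, which set the speed and desensitisation of its response. Kctd8, one of them, was upregulated. It lay between 1.88 and 2.95 FPKM in Tip60 cKO libraries (median 2.497), against 1.42 to 1.95 FPKM in Control libraries (median 1.49), and the only overlap was Tip60 cKO replicate 6, below Control replicate 2. The mean was 1.55 times that of Control mice (log2 change 0.42 ± 0.07, adjusted p = 0.000155) and the call held under each of the 22 alternative settings. Kctd12b, the other tested gene of this kind, averaged 0.938 ± 0.0885 FPKM in Tip60 cKO mice and 0.910 ± 0.0809 FPKM in Control mice (interval of the log2 change -0.08 to 0.12, below that of Kctd8). Kctd5, which targets G protein beta-gamma subunits and was the most abundant of the family, averaged 7.37 ± 0.184 FPKM in Tip60 cKO mice and 7.30 ± 0.509 FPKM in Control mice. The part of the interneuron marker shift in the Kctd8 difference was not tested.

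Ubiquitin-specific proteases, which remove ubiquitin, showed the largest fall. Usp22, the deubiquitinase of the SAGA coactivator complex, acts on histones H2A and H2B in the same complex that carries the acetyltransferase Gcn5. It lay between 27.3 and 31.3 FPKM in Tip60 cKO libraries (median 27.7), against 39.6 to 46.0 FPKM in Control libraries (median 44.8). The highest Tip60 cKO library was far below the lowest Control library, the mean was 0.647 times that of Control mice (log2 change -0.61 ± 0.04, limma adjusted p = 2.71e-08), and the call held under every one of the 22 alternatives. Usp42 was called higher but rested on a single library: Tip60 cKO replicate 6 had 8.13 FPKM and the other 5 had 4.49 to 5.61 FPKM, against 3.85 to 4.72 FPKM in Control libraries. The genotypes overlapped (log2 change 0.29 ± 0.11, adjusted p = 0.0302), and without that library the log2 change was 0.18. Its call was also lost after either rescaling and without the filter on low levels. Leaving out Tip60 cKO replicate 4 or any of Control replicates 1 to 4 gave an adjusted p of 0.0502 to 0.0581. Usp14, the deubiquitinase bound to the proteasome, averaged 25.2 ± 1.37 FPKM in Tip60 cKO mice and 27.5 ± 2.41 FPKM in Control mice (adjusted p = 0.0834). After median-ratio scaling Usp14 was lower by the adjusted p (log2 change -0.23, limma adjusted p = 0.00112), but not past the fold threshold. Usp2, whose transcript follows the circadian clock, averaged 13.2 ± 0.935 FPKM in Tip60 cKO mice and 15.5 ± 1.68 FPKM in Control mice (log2 change -0.21, adjusted p = 0.0104) and was called lower after both rescalings.

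**Figure D3:**
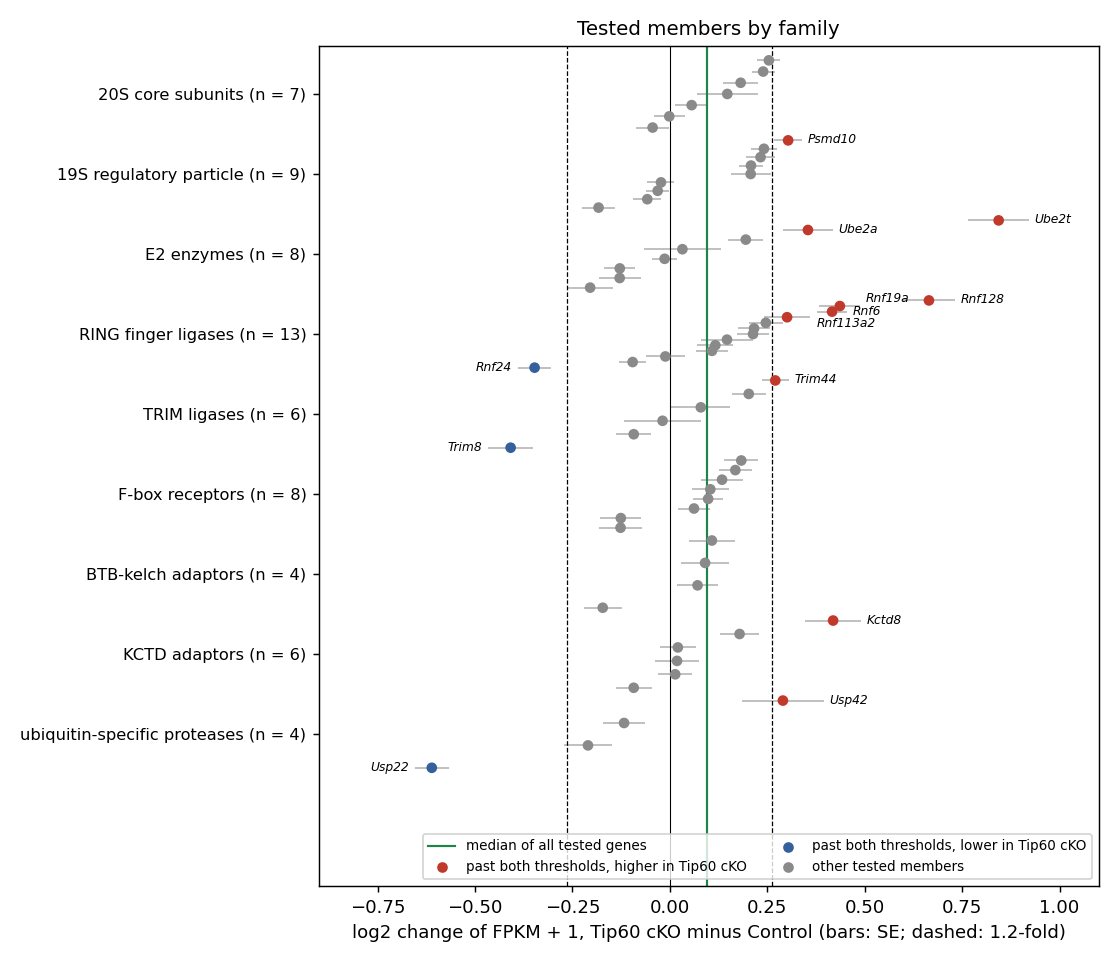
Log2 change of FPKM + 1 (Tip60 cKO minus Control) with SE for the 65 tested members by family, the 13 called genes named. Most members lie between the dashed 1.2-fold lines around the green line, the median of all tested genes at 0.09, and the called genes are spread over 6 of the 9 families.

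Without overlap between the genotypes, 19 tested members were above (29.2%) and 3 below (4.62%) in Tip60 cKO libraries, against 25.2% and 8.32% of all tested genes. Log2 changes within 0.1 of 0 were found for 21 members (32.3%) and for 33% of all tested genes. Without Tip60 cKO replicate 1, the library with high Ttr, the calls were again 10 and 3.

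Genes of the same pathway that do not carry the chosen symbols were called in both directions. Of 162 listed genes 27 were in the table and 26 were tested, with 4 called higher and 4 lower, where 19.9% and 6.5% of all tested genes were. Their median log2 change was -0.03, against 0.09 for all tested genes. The ubiquitin-like modifier Nedd8, which activates cullin ligases, averaged 134 ± 3.93 FPKM in Tip60 cKO mice and 103 ± 2.94 FPKM in Control mice, and Cops8, a subunit of the COP9 signalosome that removes Nedd8 from cullins, 47.0 ± 1.67 FPKM in Tip60 cKO mice and 36.8 ± 1.35 FPKM in Control mice. The anaphase-promoting complex genes Anapc13 (76.7 ± 4.52 FPKM in Tip60 cKO mice and 50.2 ± 2.48 FPKM in Control mice) and Anapc7 were also called higher, while the activator of this complex, Fzr1, averaged 20.4 ± 1.12 FPKM in Tip60 cKO mice and 24.2 ± 1.19 FPKM in Control mice and did not pass the fold threshold. Called lower were Uba1, the main ubiquitin-activating E1 enzyme (79.0 ± 2.33 FPKM in Tip60 cKO mice and 97.7 ± 4.09 FPKM in Control mice), the deubiquitinase Josd1 (11.6 ± 0.444 FPKM in Tip60 cKO mice and 17.7 ± 0.957 FPKM in Control mice), the proteasome shuttle Ubqln2 (40.8 ± 2.15 FPKM in Tip60 cKO mice and 51.9 ± 3.75 FPKM in Control mice) and Tnfaip3 (A20), a ubiquitin-editing inhibitor of NF-kB signalling (0.930 ± 0.0978 FPKM in Tip60 cKO mice and 1.72 ± 0.124 FPKM in Control mice). After median-ratio scaling 1 of these genes was called higher and 7 were called lower.

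Nearly as many members were too low to test. In the 61 that were above 0 but below a mean of 0.5 FPKM, the mean was higher in Tip60 cKO mice for 47 (77%), where this was so for 71.8% of the 4843 genes of the same class. More Tip60 cKO than Control libraries were above 0 for 30 of them (49.2%, against 38.1% of the class) and the reverse for 5 (8.2%, against 15.4%). Above 0 in Tip60 cKO libraries only were 8 (13.1%, against 14.6%), and in Control libraries only 1, Usp26 (1.64%, against 5.8%). In 5 members every Tip60 cKO library was above every Control library (8.2%, against 5.93% of the class), and in none was it below (0.289%). These 5, named here after their values were seen, were Fbxo15, an F-box gene known from embryonic stem cells (0.112 to 0.345 FPKM in Tip60 cKO libraries and 0.0208 to 0.0724 FPKM in Control libraries), Kbtbd13, Klhl31 and Asb15, known from skeletal muscle, and Asb17, known from testis (0.0673 to 0.252 FPKM in Tip60 cKO libraries and 0 to 0.0340 FPKM in Control libraries).

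All 12 members matched by symbol to the muscle list lay below the tested level, and Trim54 was at 0. Kbtbd10 was on that list under its newer symbol Klhl41 and was not matched. It was tested and not called (0.6725 ± 0.102 FPKM in Tip60 cKO mice and 0.553 ± 0.117 FPKM in Control mice). The summed level of these 12, without Kbtbd10, was 0.514 to 0.809 FPKM in Tip60 cKO libraries and 0.293 to 0.453 FPKM in Control libraries. A large part of that difference was Kbtbd13, which averaged 0.237 FPKM in Tip60 cKO mice and 0.0731 FPKM in Control mice. The mean was higher in Tip60 cKO mice for 8 of the 12, where this was so for 71.8% of all genes above 0 but below the tested level. The 4 general markers of skeletal muscle summed to 0.926 to 1.49 FPKM in Tip60 cKO libraries and 0.760 to 1.40 FPKM in Control libraries. Des, the only one tested, made up most of that sum and was not called (0.765 FPKM in Tip60 cKO mice and 0.811 FPKM in Control mice). The others were too low to test, with higher means in Tip60 cKO mice. Myh1 averaged 0.228 FPKM in Tip60 cKO mice and 0.0458 FPKM in Control mice, Ckm 0.129 and 0.0628 FPKM, and Mb 0.222 and 0.125 FPKM. Socs1, a feedback inhibitor of cytokine signalling and the only gene of its list in the table, averaged 0.272 FPKM in Tip60 cKO mice and 0.233 FPKM in Control mice. The 11 genes of the mouse Fbxw cluster, near-identical copies whose reads cannot be assigned with certainty, stayed at or below 0.0855 FPKM in any library. Levels this low rest on few reads in each library. With a pseudocount of 0.1 and all genes of at least 0.1 FPKM in the fit, an alternative added after the data had been seen, 18 of 82 members were called higher (22%) and 5 lower (6.1%), where 26.7% and 5.93% of 3640 genes were. Among the low members, Fbxo15 (log2 change 1.01, adjusted p = 0.000236), Kbtbd13 (log2 change 0.96, adjusted p = 0.000167), the deubiquitinase gene Usp43 (log2 change 0.43, adjusted p = 0.00945) and Trim30d, whose reads may be shared with other Trim30 copies (log2 change 0.34, adjusted p = 0.0446), were then called higher. Fbxl7 (log2 change -0.36, adjusted p = 0.0439) and Trim71, a regulator of developmental timing (log2 change -0.31, adjusted p = 0.0408), were called lower.

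**Figure D4:**
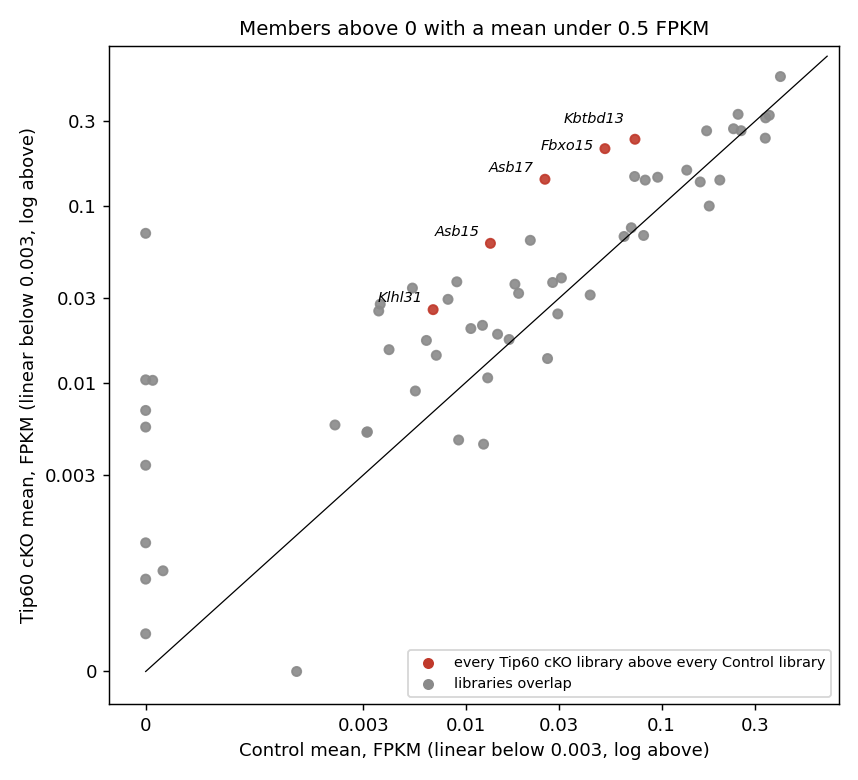
Mean FPKM in Tip60 cKO mice (vertical axis) against mean FPKM in Control mice (horizontal axis) for the 61 members above 0 with a mean under 0.5 FPKM, on axes that are linear below 0.003 and logarithmic above, with the line of equal levels. Of these, 47 lie above the line, and the 5 named genes are those whose libraries do not overlap.

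Both members with isolated 0 values were left without a test. Asb8 was at exactly 0 in Tip60 cKO replicate 1 and at 13.9 to 17.03 FPKM in the other 11 libraries. Fbxl15, an F-box protein that targets the ligase Smurf1, had 7.23, 8.5, 0, 7.53, 7.86 and 10.8 FPKM in Tip60 cKO replicates 1 to 6, against 8.64 FPKM in Control replicate 3 and 0 in the other 5 Control libraries. A value of exactly 0 in such a gene can be a failed estimate, so that no fold is given.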

How the data were processed

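RNA-Seq libraries of hippocampal CA1 from 6 Tip60 cKO and 6 Control mice were analysed, grouped by the genotype in the labels. TruSeq libraries were made from total RNA isolated by phenol-chloroform extraction, and the sources used here do not state their strandedness. The authors deposited FPKM values, scaled by transcript length and depth, and not counts. Tools in the submitters' processing notes are bedtools 2.16.2, TopHat2 2.0.8, FastQC 0.10.0 and CASAVA 1.8.2, with mm9 as the build. What program and annotation gave the FPKM is not given in these sources, and the study's own count analysis was a separate processing.

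Of 10383 rows, 100 exact repeats were dropped and rows of a symbol summed. Small RNA genes (530), genes at 0 throughout (2414) and genes with isolated 0 values whose other libraries had a median of 1 FPKM or more (42) were set aside. Genes near 0 (under 0.3 FPKM) throughout 1 genotype (3) were kept. Genes averaging 0.5 FPKM or more (2416) were fitted as log2(FPKM + 1) with limma 3.58.1 under R 4.3.3, using robust variances, a prior that depends on the mean and no covariates. P-values were adjusted by Benjamini-Hochberg over all of them and called below 0.05 with a fold of FPKM + 1 above 1.2. The adjusted p, without the fold threshold, was checked on simulated data with changes of FPKM + 1. Below 0.05 it recovered 68% of 50 genes changed 1.2-fold and 100% of 50 changed 1.5-fold among 2416, with 5.64% false calls. How often such genes would pass both thresholds was not simulated. At most 0.124% of tested genes had equal values in any pair of libraries, so that none looked like a repeat.

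Members, role lists and markers were chosen with earlier results of these data known. Named are the called members, per family the most abundant tested gene and the largest calls, and tested genes of the role lists. Other named genes were chosen after their values were seen. Alternatives were other scalings, pseudocounts, filters and priors, no fold threshold, and leaving out each library. Replicate numbers only name the mice.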

Additional observations from a re-analysis of the deposited data

Results flagged for a closer look

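In 20 named members (40 groups of 6 libraries), 8 groups had a highest or lowest library that stood apart from the rest, with a gap over 0.625 of the group's range. Chance gives about 1 in 20 groups. Tip60 cKO replicate 3 was the lowest of its group for Psmb4 (81.4 FPKM) and Trim44 (57.59 FPKM), and Tip60 cKO replicate 6 the highest for Usp42 (8.125 FPKM). Control replicate 3 was the lowest of its group for Kctd5 (6.327 FPKM), Psmd2 (55.49 FPKM), Rnf6 (13.48 FPKM), Ube2a (15.31 FPKM) and Usp22 (39.64 FPKM). These 2 libraries had the lowest median-ratio factors of their genotypes, 0.986 for Tip60 cKO replicate 3 and 0.912 for Control replicate 3. After median-ratio scaling, 2 of the 8 gaps remained over 0.625 of the range, Ube2a (0.73) and Usp42 (0.679).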

How the results depend on the processing

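Among the 22 alternatives that refit the values, Ube2t, Rnf128, Rnf19a, Rnf6, Kctd8, Usp22, Trim8 and Rnf24 kept their call in each. Psmd10 and Rnf113a2 kept it in 20, Ube2a in 21, Trim44 in 18 and Usp42 in 13. Median-ratio scaling called 5 members higher and 7 lower (all tested genes 285 and 278), and upper-quartile scaling 6 and 5. The adjusted p alone gave 29 and 9 (all tested genes 972 and 349), and a pseudocount of 0.1 with a mean of at least 0.1 FPKM, chosen after seeing the data, 18 and 5 (all genes higher, 973), with more genes tested. Without 1 library, 8 to 11 members were higher and 3 lower, and 460 to 511 and 153 to 177 of all tested genes.

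Some small log2 changes turned sign. Median-ratio scaling gave -0.0039 for Fbxo42, -0.050 for Fbxo45, -0.027 for Kctd11, -0.038 for Kctd12b, -0.092 for Kctd5, -0.062 for Psma5, -0.018 for Trim62 and -0.043 for Ube2c. With upper-quartile scaling they were -0.0077 for Fbxo45, -0.010 for Kctd11, -0.016 for Kctd12b, -0.052 for Kctd5, -0.017 for Psma5 and -0.015 for Ube2c. Leaving out 1 library gave ranges of -0.015 to 0.051 for Kctd11, -0.022 to 0.027 for Kctd5, -0.018 to 0.028 for Psmb4, -0.038 to 0.027 for Rnf19b, -0.097 to 0.027 for Trim59, -0.026 to 0.088 for Ube2c and -0.029 to 0.00028 for Ube2s. The cause was not tested, beyond what each scaling does by construction.

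FPKM is scaled to a library total, and a change in that total moves all genes alike, so that changes near the median of all genes have no firm sign. Genes near 0.5 FPKM rest on few reads. Members with close copies (Ube2a, Rnf113a2, the Fbxw cluster, Trim30d) are less certain than single-copy genes. No paired analysis was possible because the labels number no replicates: the numbers used here follow the order of deposit, only name the mice and pair none of them.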
